A study of Rattus norvegicus with 19 samples.

Results

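The genes described here act in S phase and mitosis: 54 were chosen by symbol for their roles in DNA replication, as mitotic kinases, in the spindle checkpoint or in cytokinesis. The array carried 1 probe for each of 47 of these genes, out of 21791 probes in all. Top2a, Birc5, Nek2, Anln, Rrm1, Tk1 and Dut had no probe with their symbol. A probe was tested where its detection p-value was under 0.05 on at least 3 of the 19 arrays, which 13116 probes passed. Of the 47 genes, 45 passed, and Ccnb1 and Cenpa were not detected on any array.

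The arrays held RNA of rat trigeminal nerves and of tumours that grew in them. Tumours were malignant peripheral nerve sheath tumours, called MPNST here (12 arrays), and a single microtumour, each hybridised on its own, and 6 arrays held pools of normal nerve. Rats with tumours had been given ENU (N-ethyl-N-nitrosourea), which alkylates DNA, at 80 µg per g body weight under the skin on postnatal day 1, and were adult when sampled. The nerve pools are labelled untreated and came from rats aged 85 days, although the treatment protocol given for all samples describes the injection. BDIV and BDIX are inbred rat strains, and BDIX.BDIV-Mss4a is by its name a strain that carries a BDIV segment on a BDIX background. Crosses of both inbred strains (F1 hybrids) gave 7 of the MPNST, BDIX females gave MPNST 3 and 4, BDIV gave MPNST 11 (female) and MPNST 12 (male), and a BDIX.BDIV-Mss4a female gave MPNST 6. The microtumour came from a BDIX.BDIV-Mss4a male. Each of BDIX.BDIV-Mss4a (nerves 1 and 2), BDIX (nerves 3 and 4) and BDIV (nerves 5 and 6) had 1 male and 1 female nerve pool, and F1 hybrids had none. The number of rats in a pool and whether 2 tumours shared an animal are not given, so the p-values measure the spread between these arrays.

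Dividing cells load the MCM helicase onto their DNA before S phase, copy the DNA at forks held by the sliding clamp Pcna, and enter mitosis when Cdk1 binds a B-type cyclin. Aurora and Polo kinases then build the spindle, the checkpoint holds the anaphase promoting complex back until the kinetochores are attached, and Prc1 bundles the microtubules between which the cell divides. Most of these genes are transcribed in waves, replication genes at the start of S phase through E2F sites and mitotic genes in G2 through CCAAT boxes and a cell cycle genes homology region (CHR). The resting Schwann cells, neurons and fibroblasts of an adult nerve rarely divide, whereas an MPNST is a tumour of dividing Schwann-lineage cells.

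The promoters of 43 of the 54 genes were in RefSeq's table for the GRCr8 assembly, as windows from 250 bases before to 50 bases after the start site. Only 34 of the 43 were of genes tested on the arrays. The promoter sets counted below thus include genes that were not tested, such as Top2a, and lack some that were, such as Rrm2. Those of the 3 marker genes of mitosis and of the 2 helicase genes in which the microtumour rose are shown. Capitals mark the CHR (TTTGAA), the CCAAT box (CCAAT) and 4 forms of E2F site, of which the first is TTCCCGC, the next is TTGGCGC, then comes TTCGCGC and the last is TTGCCGC, each searched on both strands with overlapping matches counted.
Ccnb2 (chr8:79981609-79981908, minus strand): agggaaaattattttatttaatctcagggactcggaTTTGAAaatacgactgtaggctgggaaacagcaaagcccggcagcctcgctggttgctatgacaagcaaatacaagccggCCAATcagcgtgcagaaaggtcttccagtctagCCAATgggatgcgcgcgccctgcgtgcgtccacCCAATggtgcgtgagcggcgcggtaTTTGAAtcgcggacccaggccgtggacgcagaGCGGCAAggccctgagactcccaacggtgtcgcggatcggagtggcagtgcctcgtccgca
Cdk1 (chr20:19265043-19265342, plus strand): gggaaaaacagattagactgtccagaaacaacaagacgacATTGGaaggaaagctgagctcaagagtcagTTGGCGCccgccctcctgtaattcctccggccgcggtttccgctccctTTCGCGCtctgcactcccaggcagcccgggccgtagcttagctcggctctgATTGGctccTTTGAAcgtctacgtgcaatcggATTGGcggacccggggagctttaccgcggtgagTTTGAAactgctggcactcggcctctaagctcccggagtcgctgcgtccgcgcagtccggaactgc
Prc1 (chr1:143659231-143659530, plus strand): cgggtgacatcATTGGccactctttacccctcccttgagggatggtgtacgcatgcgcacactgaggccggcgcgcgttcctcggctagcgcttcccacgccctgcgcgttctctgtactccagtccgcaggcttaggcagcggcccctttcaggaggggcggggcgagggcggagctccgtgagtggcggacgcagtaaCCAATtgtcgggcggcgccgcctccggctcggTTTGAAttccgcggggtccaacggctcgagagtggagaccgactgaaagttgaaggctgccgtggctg
Mcm3 (chr9:30733697-30733996, minus strand): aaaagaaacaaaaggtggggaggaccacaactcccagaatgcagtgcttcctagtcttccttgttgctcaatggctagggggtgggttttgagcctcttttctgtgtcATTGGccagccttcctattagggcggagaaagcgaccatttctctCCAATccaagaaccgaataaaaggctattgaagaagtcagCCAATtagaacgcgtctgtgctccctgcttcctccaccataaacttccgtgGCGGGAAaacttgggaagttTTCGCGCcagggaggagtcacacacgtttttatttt
Mcm6 (chr13:42404303-42404602, minus strand): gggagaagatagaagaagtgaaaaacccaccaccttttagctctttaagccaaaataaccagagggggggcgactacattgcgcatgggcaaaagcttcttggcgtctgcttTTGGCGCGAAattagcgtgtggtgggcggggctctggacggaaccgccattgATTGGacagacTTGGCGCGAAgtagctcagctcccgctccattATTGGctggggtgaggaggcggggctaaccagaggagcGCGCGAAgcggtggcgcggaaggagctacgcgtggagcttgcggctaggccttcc

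A CHR stood in 21 of the 27 promoters of mitosis genes (77.8%) and in 1 of the 15 of replication genes, that of Mcm2, against 18.1% of all 27457 promoters of this length. An E2F site stood in 12 of the 15 replication promoters and in 5 of the 27 mitosis promoters, against 10.01% of all. A longer E2F motif of 8 letters, the same forms after a T, had been searched first and stood in 8 of the 15 replication promoters, 1 of the 27 mitosis promoters and 2.25% of all; the 7-letter motif was taken up after those counts had been seen, so the shares depend on the letters chosen. CCAAT was in 63.0% of the mitosis promoters and 53.3% of the replication promoters, against 37.7% of all. These shares were not adjusted for base content. The median share of G and C was 58.7% in the mitosis promoters and 58.3% in the replication promoters, against 52.3% in all. In Cdk1 a CCAAT began 49 bases and a CHR 16 bases before the start site, and in Prc1 they began 50 and 18 bases before it. This spacing was looked for after those promoters had been seen: a CCAAT 20 to 40 bases before a CHR was found in 9 of the 27 mitosis promoters, none of the 15 replication promoters and 0.91% of all promoters. The 9 were Ccnb2, Cdk1, Cks2, Ttk, Cdc20, Cdca8, Top2a, Prc1 and Ect2. Mcm3 held 3 CCAAT boxes with E2F sites 6 bases before and 15 bases after the start site, and Mcm6 held 5 E2F matches, 4 of them in overlapping pairs. A match describes letters in a window and is not a measured binding site.

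The share of probes detected ran from 44.1% to 54.1% per array. Background differed in steps, with a 25th percentile of raw signal of 80.4 to 94.6 on 11 arrays (9 MPNST and both BDIX.BDIV-Mss4a nerve pools) and of 59.0 to 67.5 on 8 arrays (MPNST 9, 11 and 12, the microtumour and the BDIX and BDIV nerve pools). The labels name no batch. Levels below are normalised log2 values, in which the fold is 2 for a difference of 1. The lowest level on any array was 4.38, and an added constant of 16 draws dim values together, so folds of dim genes are understated. Markers of the labelled tissue were present by the means of their lists: the mean of the myelinating Schwann cell list was 11.59 or more in the nerve pools, and that of sensory neuron genes, which mark neurons with cell bodies in the ganglion, was 11.70 to 12.60. Single markers could be low: Calca of the sensory neuron list was detected in no nerve pool (mean 4.64), and Mag of the myelinating list had a nerve mean of 6.13.

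All 45 genes tested rose in MPNST against nerve (limma's moderated test, Benjamini-Hochberg adjusted p under 0.05 over all 13116 probes), where 24.8% of all probes were higher and 21% lower (45.7% in all). Adjusted p-values ran from 2.21e-11 to 0.000374. The median difference was 2.78 on the log2 scale, against 0.10 for all probes, and 31 genes differed by at least 2. A difference of at least 1 with a call was found for 44 of the 45 genes and for 9.71% of all 13116 probes tested. In 38 of the 45 genes every MPNST lay above every nerve pool, against 7.62% of all probes. A gene silent in nerve could pass the detection filter only through the tumours and so had to differ, which bears on 10 genes seen in fewer than 3 nerve pools. Ccna2, Bub1b, Ttk, Pbk and Cdc6 were seen in 1 or 2 pools, and Mad2l1, Melk, Cenpf, Cdt1 and Uhrf1 in none. The sizes of their differences are taken from at or near the background. The other 35 genes were detected in at least 3 nerve pools, and each of them rose as well. In whole tissue, more dividing cells and more RNA per cell cannot be told apart.

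**Figure D1:**
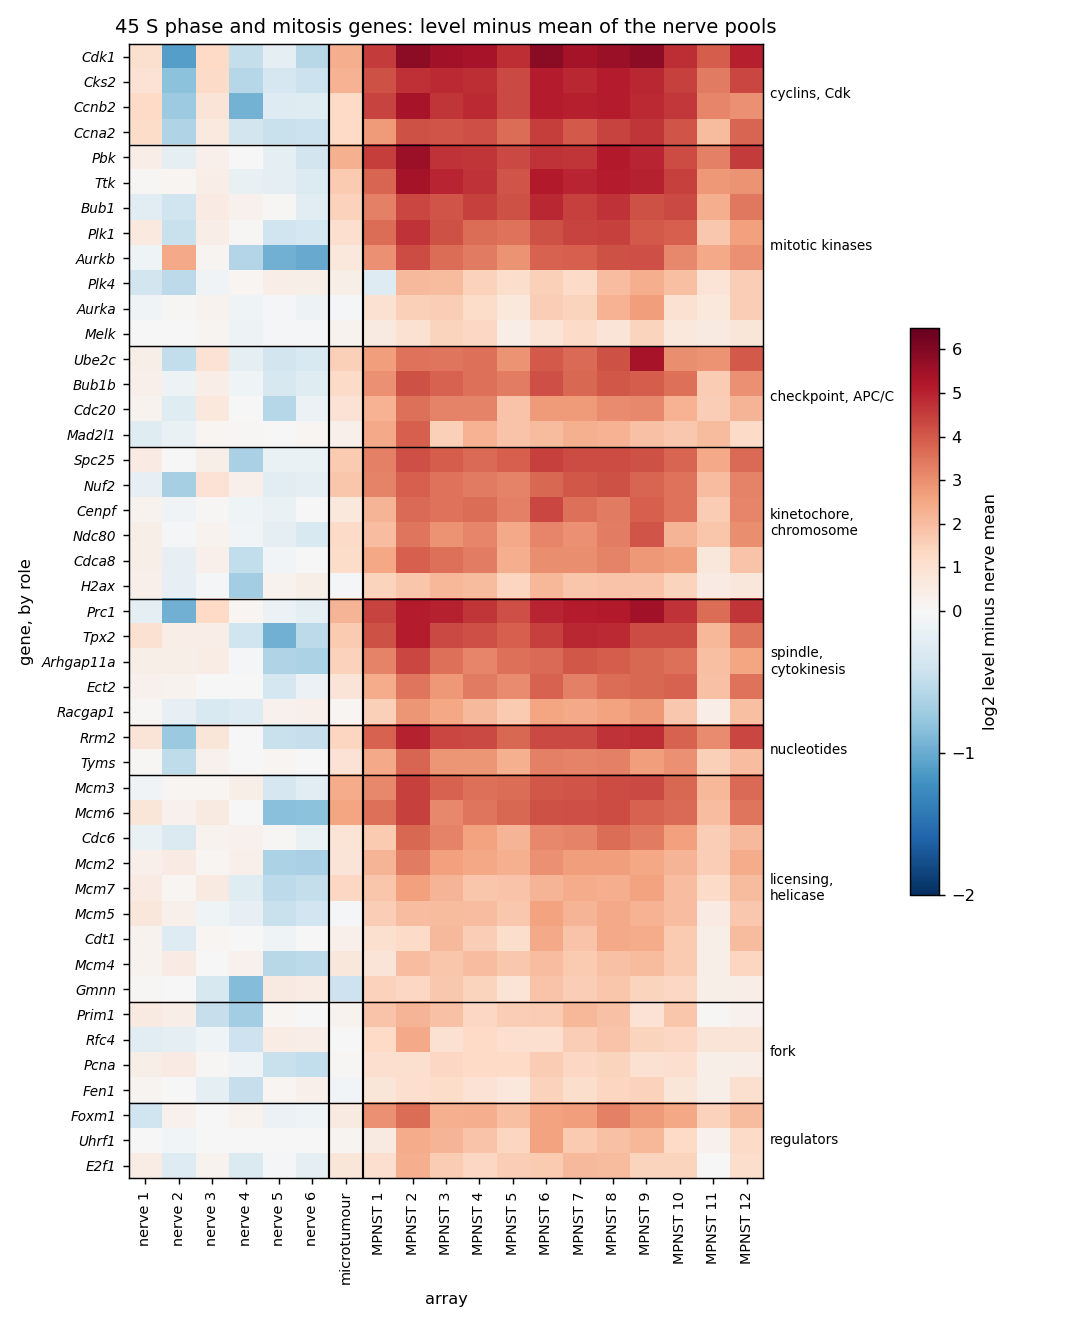
Normalised log2 level minus the mean of the 6 nerve pools for the 45 genes tested (rows, grouped by role) on the 19 arrays (columns), with red above and blue below the nerve mean and the colour scale stretched below 0. The MPNST columns are red in nearly every row, deepest for Cdk1, Prc1, Pbk and Cks2 and palest for the fork genes and Melk, and MPNST 11 is the palest tumour.

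Cyclins and Cdk1 rose most of all roles, by a median of 4.56 on the log2 scale. Cdk1, the kinase that drives entry into mitosis, had lowest, median and highest levels of 5.19, 5.96 and 7.57 in the nerve pools and of 10.23, 11.65 and 12.16 in the MPNST. The gap between the groups was wider than the range within either. The difference was 5.20 ± 0.33 (SE, 12 MPNST and 6 nerve pools), or 36.8-fold, at an adjusted p of 2.29e-10. Ccnb2, a B-type cyclin that activates Cdk1, was 6.26, 6.96 and 8.52 in nerve and 10.19, 11.94 and 12.57 in MPNST, a difference of 4.53 ± 0.37 (23.2-fold, adjusted p = 4.75e-09). The lowest tumours for Ccnb2 were both BDIV MPNST, at 10.36 and 10.19. Cks2, a small protein that binds Cdk1, rose by 4.59 ± 0.29. Ccna2, the cyclin of S phase and G2, rose by 3.85 ± 0.34 from 5.34 ± 0.74 (SD, n = 6) to 9.19 ± 0.74 (SD, n = 12). It was detected in 2 of the 6 nerve pools, so its difference is taken from near the background and has no rank among the 4. Ccnb1, the other B-type cyclin, stayed between 4.55 and 4.95 on every MPNST and nerve array, below detection, and gives no measure of the gene.

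The 8 mitotic kinases tested all rose, and those detected in nerve differed widely in size of change. Pbk, a kinase active in mitosis, had levels of 4.62, 4.90 and 5.42 in nerve and 8.27, 9.64 and 10.54 in MPNST, a difference of 4.59 ± 0.23 (24.1-fold) with the smallest adjusted p of all 45 genes, 2.21e-11. It was detected in 2 of the 6 nerve pools. The checkpoint kinases Ttk (detected in 1 nerve pool) and Bub1 rose by 4.44 ± 0.34 and 4.06 ± 0.29, and Plk1, which acts from mitotic entry to cytokinesis, by 3.74 ± 0.34. Aurkb, the kinase of the chromosomal passenger complex, rose by 3.48 ± 0.40, with the widest spread in nerve: nerve pool 2 stood at 8.45 and the other 5 between 5.0 and 6.20. Aurka, the kinase of the spindle poles, rose by only 1.44 ± 0.24. Plk4, which licenses the doubling of centrioles, rose by 1.52 ± 0.29, and MPNST 1 fell among the nerve pools at 4.93. Melk was detected in no nerve pool, so that its difference of 0.94 ± 0.16 (adjusted p = 5.12e-05) was taken from the background and has no rank among the genes. Its MPNST mean of 5.83 was at least 1.87-fold higher, a bound set against the lowest detected signal of each nerve array, as for the other such genes below.

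Among the genes of the checkpoint and the anaphase promoting complex, all 4 rose. Ube2c, the enzyme that hands ubiquitin to the complex, rose most, by 3.61 ± 0.31 from 5.5 ± 0.55 (SD, n = 6) to 9.11 ± 0.72 (SD, n = 12). The checkpoint genes Bub1b and Mad2l1 rose by 3.49 ± 0.29 and, with no nerve pool detected, at least 4.11-fold (adjusted p = 1.06e-06). Cdc20, the activator that the checkpoint restrains, was detected in all 19 arrays and rose by 2.65 ± 0.27.

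All 6 genes tested of the kinetochore, the passenger complex and the chromosome rose. Spc25, Nuf2 and Ndc80, which encode 3 of the subunits of the complex that grips microtubules, rose by 3.83 ± 0.24, 3.47 ± 0.26 and 2.88 ± 0.26. Spc25 led the group, with 5.85, 6.44 and 7.04 in nerve and 8.98, 10.41 and 10.96 in MPNST and no overlap. Cenpf, a large protein of the outer kinetochore, was at least 9.47-fold higher. Cdca8, the borealin subunit of the passenger complex, rose by 2.75 ± 0.33. H2ax, the histone variant that marks broken DNA when phosphorylated, was abundant in nerve at 10.79 ± 0.40 (SD, n = 6) and rose least, by 1.61 ± 0.23, with MPNST from 11.33 to 12.96. Cenpa, the histone of the centromere, was below detection on every array.

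Prc1 led the genes of the spindle and of cytokinesis. Its nerve pools had levels of 5.42, 6.23 and 7.65 and its MPNST of 9.99, 11.20 and 11.83, a difference of 4.75 ± 0.27 (26.9-fold, adjusted p = 6.79e-11). Every tumour lay above the highest pool by more than 2 on the log2 scale. Tpx2, which activates Aurora A on the spindle, rose by 4.16 ± 0.35. The regulators of the small GTPase RhoA also rose, Arhgap11a by 3.45 ± 0.29, Ect2 by 3.24 ± 0.24 and Racgap1, the least of the group, by 2.11 ± 0.28.

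Replication genes also rose, by smaller amounts in most cases. Their median level in nerve was 7.42, against 5.5 for the 27 mitosis genes tested, and their median difference 1.93 against 3.48; probes of different genes differ in brightness, so the levels describe these probes only. Rrm2, the subunit that limits ribonucleotide reductase, rose by 4.22 ± 0.27 (18.6-fold), and Tyms, which makes thymidylate, by 2.78 ± 0.25. In the licensing group Mcm3 went from 5.38 ± 0.27 (SD, n = 6) to 9.11 ± 0.62 (SD, n = 12), a difference of 3.73 ± 0.25, and Mcm6 from 7.61 ± 0.69 (SD, n = 6) to 11.27 ± 0.65 (SD, n = 12), a difference of 3.66 ± 0.31. The other helicase subunits rose by 2.52 ± 0.22 (Mcm2), 2.10 ± 0.21 (Mcm7), 1.93 ± 0.24 (Mcm5) and 1.64 ± 0.24 (Mcm4), so subunits of 1 complex differed in size of change. The loading factor Cdc6 rose by 2.77 ± 0.29, Cdt1 at least 3.14-fold, and geminin (Gmnn), the inhibitor of Cdt1, by 1.31 ± 0.24 (adjusted p = 0.000162), the least in the group.

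The 4 fork genes were detected on all 19 arrays and had the smallest median difference of any role, 1.23. Prim1, the catalytic subunit of primase, rose by 1.48 ± 0.30 (adjusted p = 0.000374), with nerve pools at 9.32 to 10.60 and MPNST at 10.10 to 12.25. Fen1, which trims Okazaki fragments, rose by 1.03 ± 0.17, Rfc4, a subunit of the clamp loader, by 1.34 ± 0.21, and Pcna by 1.12 ± 0.20, or 2.18-fold. Pcna was already at 12.17 ± 0.43 (SD, n = 6) in nerve, and 10 of the 12 MPNST lay above the highest pool. MPNST and nerve overlapped for Prim1, Pcna, Gmnn, Mcm4, Mcm5, Plk4 and E2f1, of which 5 act in replication.

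Among the regulators, Foxm1, which drives the transcription of G2 genes, rose by 2.55 ± 0.24. Uhrf1, which carries DNA methylation over to new strands, was at least 2.38-fold higher and was detected in 10 MPNST. E2f1, which drives replication genes, rose by 1.5 ± 0.25, and 11 MPNST lay above the highest nerve pool.

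**Figure D2:**
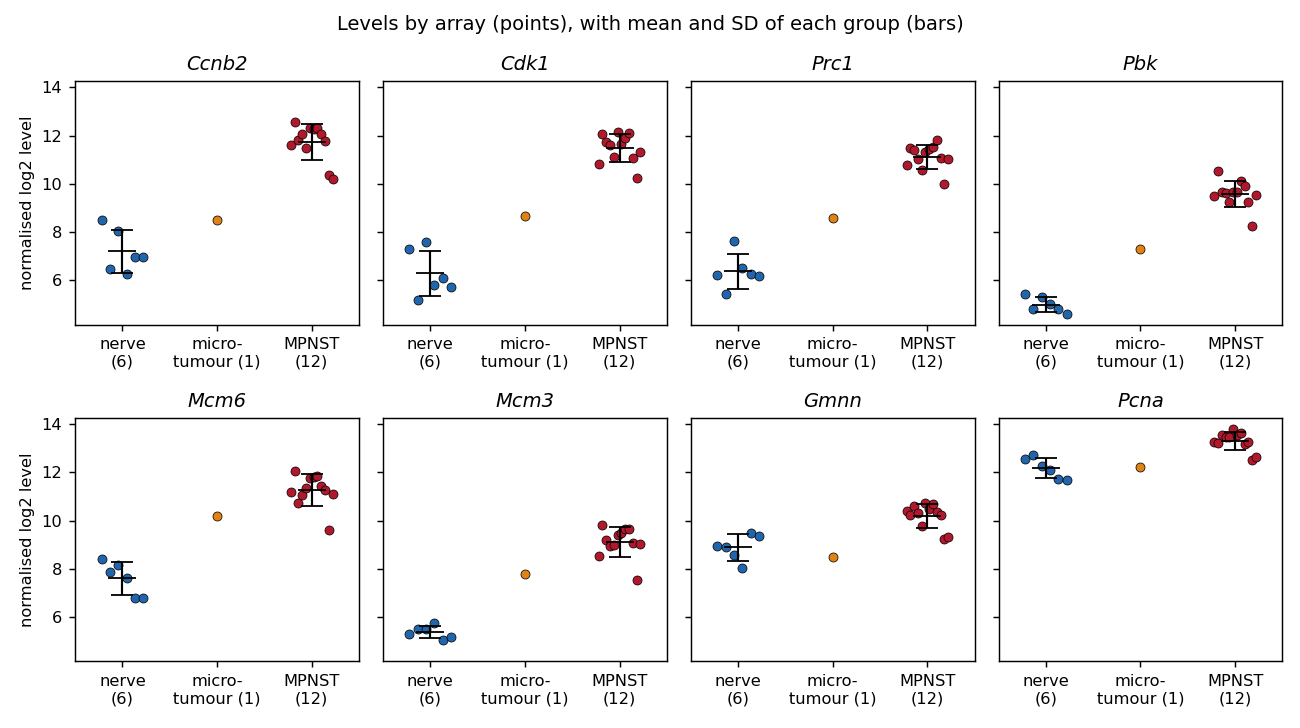
Normalised log2 levels of 8 genes on each array (points), with the mean and SD of the 6 nerve pools and of the 12 MPNST (bars). The groups are widely apart for Ccnb2, Cdk1, Prc1 and Pbk and overlap for Gmnn and Pcna, and the microtumour of Mcm6 and Mcm3 lies above MPNST 11 alone among the tumours.

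A list of 150 further cell cycle genes was read for comparison. Of its 98 probes tested, 64 rose, 3 fell and 31 did not pass the test. Kinesins and spindle genes rose in 19 of 20 probes (median difference 2.84), kinetochore and cohesion genes in 8 of 13 (0.75), other replication genes in 24 of 37 (1.10) and control genes in 13 of 28 (0.43). The highest were the spindle pole gene Aspm (4.30 ± 0.31) and the mitotic motors Kif11 (3.97 ± 0.35) and Kif20a (3.91 ± 0.26). Kif11 was detected in 10 MPNST and 1 nerve pool, so its difference is taken from near the background and has no firm rank. The 3 that fell were Pole3, a histone-fold subunit of DNA polymerase epsilon (-1.18 ± 0.28), Cdc23, a subunit of the anaphase promoting complex (-0.93 ± 0.35), and Cdc25b, a phosphatase that activates Cdk1 (-0.89 ± 0.28).

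Markers of other cells moved with the tissue as well. The mean of the 9 sensory neuron genes was 5.58 to 9.25 in MPNST, and 8 fell. Myelinating Schwann cell genes fell in 4 of 5 probes, and macrophage genes rose in 5 of 8, from a mean of 7.08 to 8.0 in nerve to 8.37 to 9.78 in MPNST. None of the 5 T and NK cell probes or the 1 B cell probe passed limma's test (1 and 0 had an unadjusted p under 0.05), with T and NK cell means of 4.96 to 6.10 in MPNST, and Gzmb was not detected on any array. Skeletal muscle genes were high in MPNST 2 and MPNST 10, at means of 11.09 and 10.59 against at most 7.13 elsewhere. Without those tumours all 45 genes still rose, and all 45 rose within the higher range of background and 40 within the lower, where 3 MPNST met 4 pools. The part of other cell types in the differences was not tested.

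The single microtumour lay between nerve and MPNST for most of the genes. It stood above the nerve mean for 40 of the 45. It was above every nerve pool for 33, or 73.3% (22.6% of all probes, and 68% of those called higher in MPNST by at least 1). It was below every MPNST for 37, or 82.2% (15.4% and 41.4%). The share above every nerve pool was near that of the probes called higher, so nothing is read from it about these genes. Against nerve, 4 genes rose in limma's test, where 1.64% of all probes were higher and 0.968% lower: Mcm6 by 2.58 ± 0.67 (adjusted p = 0.0421), Mcm3 by 2.42 ± 0.54 (0.0192), Pbk by 2.33 ± 0.50 (0.0156) and Prc1 by 2.22 ± 0.59 (0.046). Cdk1 and Cks2 had differences of similar size, 2.38 ± 0.72 and 2.27 ± 0.64, and did not pass (adjusted p = 0.0858 and 0.0608). With 1 microtumour these tests take its spread to be that of the other arrays, and the count ran from 0 to 10 over the settings tried. Whether these calls stand depends on how the background was estimated: with the detection p-values as deposited, none of the 45 passed limma's test against nerve (2 had an unadjusted p under 0.05) and 7 were lower than in MPNST. The way reported here, with the p-values put in the order of the signal, was chosen after the data had been seen.

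Against MPNST the microtumour was lower in 17 of the 45 genes, where 1.83% of all probes were lower and 2.21% higher. All 4 cyclin and Cdk genes were among them: Ccnb2 at 8.51 lay -3.23 ± 0.76 from the MPNST mean (adjusted p = 0.0215), Cdk1 at 8.66 lay -2.83 ± 0.69 from it, Ccna2 -2.54 ± 0.71 and Cks2 -2.31 ± 0.61. The kinases Ttk (-2.73), Plk1 (-2.67), Bub1 (-2.58) and Pbk (-2.27) were lower too, as were Bub1b, Cenpf, Spc25, Prc1, Ect2 and Foxm1. Of the 15 replication genes, Rrm2 (-2.84 ± 0.56, adjusted p = 0.00829, the smallest of the 17), Mcm5 (-1.98) and Mcm2 (-1.67) were lower, whereas Mcm6 and Mcm3, at 10.19 and 7.80, lay inside the range of the MPNST (9.60 to 12.04 and 7.52 to 9.80). Both were above MPNST 11 alone, and the next lowest tumours stood at 10.73 and 8.53. The microtumour lay inside the range of the MPNST for 8 genes in all (also Mcm4, Mcm7, Prim1, Cdca8, E2f1 and Plk4), and for 7 of them, all but Plk4, only because of MPNST 11. The microtumour was below the other 11 MPNST for 44 of the 45 genes and for 17.5% of all probes. MPNST 11 was the lowest tumour for 40 of the 45 genes but for 13.7% of all probes. Leaving it out thus raises the count of these genes more than that of all probes, and nothing is read from that contrast. Without MPNST 11, the tumour with the lowest mean of these genes, 30 genes were lower than in MPNST and 7 rose against nerve, where 401 of all probes differed. As that tumour was picked by these same genes, nothing is read from the larger counts either.

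How far each gene had moved from nerve was described by the place of the microtumour, its share of the way from the mean of nerve (0) to that of MPNST (1), for the 44 genes with a difference of at least 1. The median place was 0.34, against 0.53 for the 1273 probes that were higher in MPNST by the same rule. The highest places were those of Mcm6 (0.70), Mcm3 (0.65), Mcm7 (0.65), E2f1 (0.53) and Nuf2 (0.52), and Pbk (0.51) was the only other gene past 0.5. The lowest were those of Gmnn (-0.31), Fen1 (-0.05), Aurka (-0.02), Mcm5 (-0.02) and H2ax (-0.01). Helicase subunits thus stood at both ends, with Mcm5 at 5.68 among nerve pools of 5.27 to 6.46. By role the median was 0.44 for kinetochore and chromosome genes, 0.40 for spindle and cytokinesis, 0.40 for cyclins and Cdk, 0.29 for mitotic kinases, 0.34 for licensing genes and 0.04 for fork genes. Nerve pools spread widely on this scale where the difference was small. They ran from -0.66 to 0.46 for Gmnn and from -0.45 to 0.33 for Fen1, against -0.23 to 0.22 for Mcm6. The order of single genes rests on 1 microtumour and was not tested.

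The median place moved with the scale, to 0.497 with median scaling, 0.145 with the detection p-values as deposited and 0.161 on the linear scale of the authors' values. On the array of the microtumour the sensory neuron mean was 11.27 and the myelinating Schwann cell mean 10.97, both between nerve and MPNST, and the macrophage mean of 8.61 was within the range of the MPNST. Their part in the place of the genes was not tested. The 4 genes with a place but no detection in nerve, Mad2l1, Cenpf, Cdt1 and Uhrf1, are measured from the background.

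**Figure D3:**
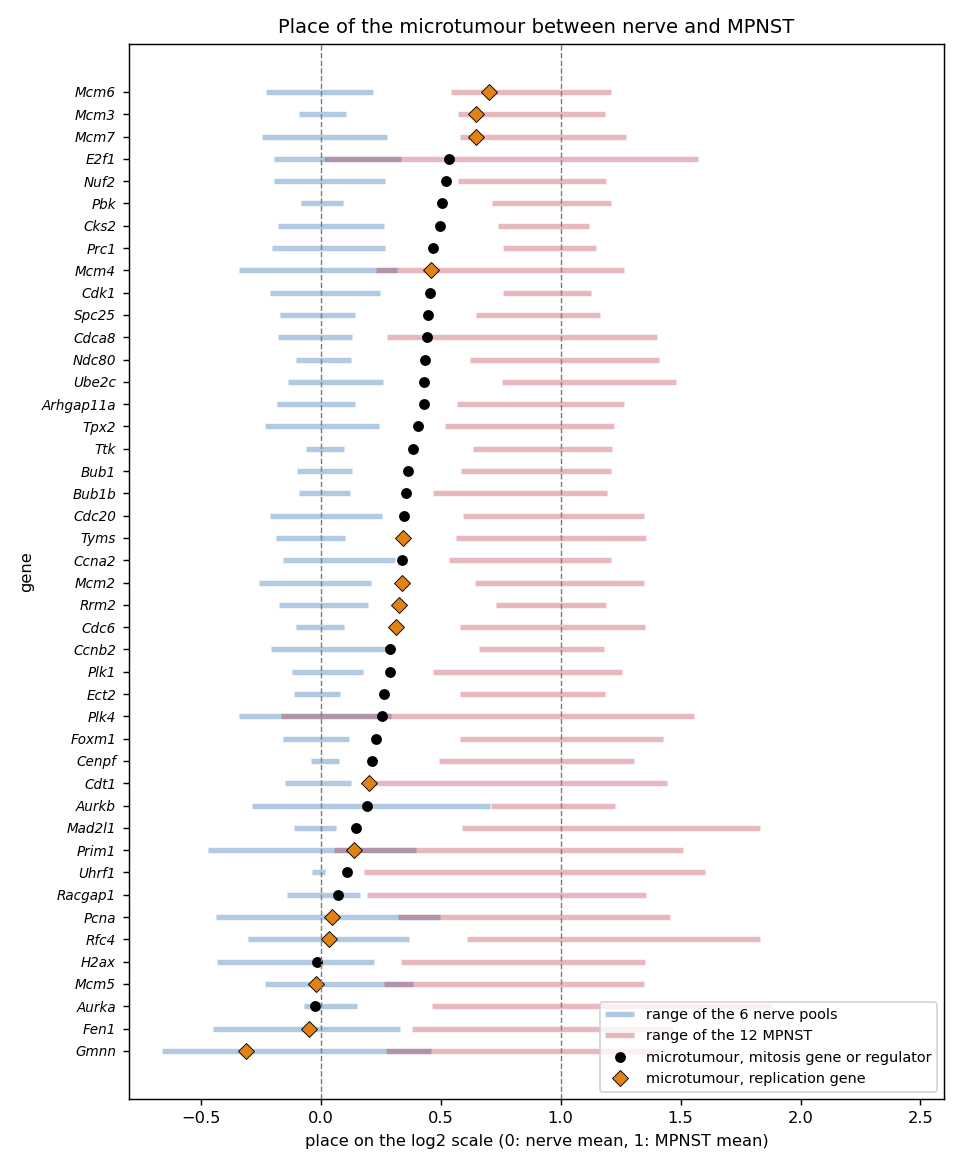
Place of the microtumour for 44 genes (points; diamonds for replication genes), with the range of the 6 nerve pools (blue) and of the 12 MPNST (red) on the same scale, which runs from 0 (mean of nerve) to 1 (mean of MPNST). Mcm6, Mcm3 and Mcm7 lie at 0.65 to 0.70, inside the MPNST range only through MPNST 11, and Gmnn, Fen1, Aurka, Mcm5 and H2ax lie at or below 0.

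The spread among the MPNST differed by gene and by tumour. The median SD of the genes over the 12 tumours was 0.61 on the log2 scale, against 0.37 over all probes, and 0.40 against 0.36 over the nerve pools. The highest SDs were those of Ttk (0.86), Cdca8 (0.83), Plk1 (0.82), Tpx2 (0.77) and Ccnb2 (0.75), and the lowest those of Fen1 (0.34), Melk (0.35), Pcna (0.38), Mcm7 (0.41) and Mcm2 (0.44). Melk was dim, with an MPNST mean of 5.83, and the added constant draws dim values together, so its low SD gives it no rank. MPNST 11 was the lowest tumour for 40 of the 45 genes, and for 13.7% of all probes and 25% of the probes that were higher in MPNST. MPNST 2 was the highest tumour for 22, and for 12.2% and 18.3% of the same probes. The mean of the 45 genes was 8.01 in MPNST 11, 8.83 in MPNST 1, 8.87 in MPNST 12 and 8.97 in MPNST 5, between 9.18 and 9.84 in the other 8, 7.39 in the microtumour and 6.19 to 6.71 in nerve. Mitosis and replication genes ranked the tumours alike at the ends, with MPNST 11 lowest at 7.98 and 8.48 and MPNST 2 highest at 9.88 and 10.10. MPNST 11 had 44 of the 45 genes detected, a macrophage mean of 9.44 and a sensory neuron mean of 8.86, each inside the range of the other tumours. Its myelinating Schwann cell mean of 10.08 was exceeded only by MPNST 12 (10.56), the other BDIV tumour. Its mean of endothelium markers, 8.49, was above that of MPNST 12 alone (8.46). The part of other cell types in its low levels was not tested.

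**Figure D4:**
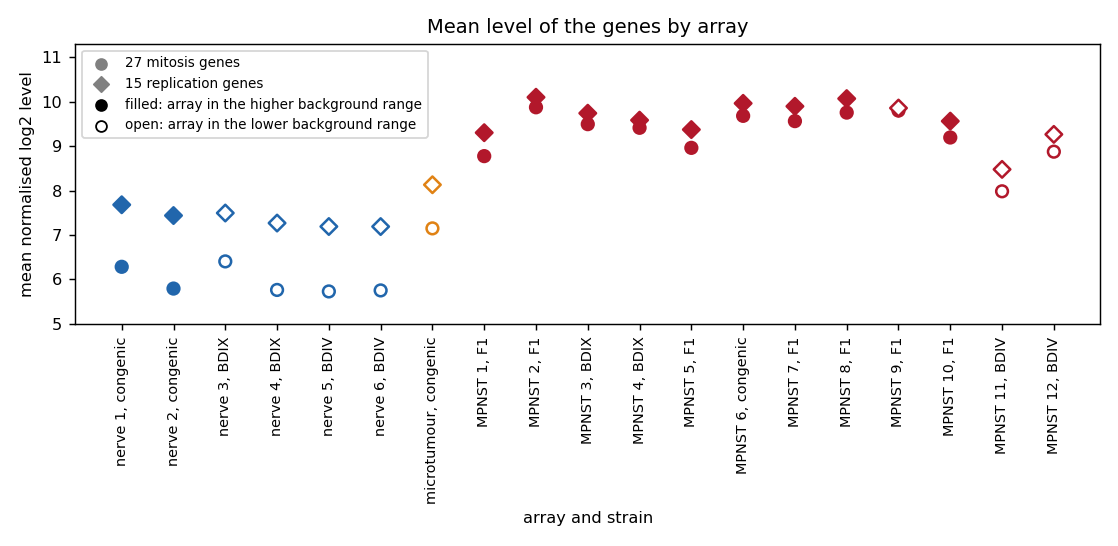
Mean normalised log2 level of the 27 mitosis genes (circles) and the 15 replication genes (diamonds) on each array, labelled with its strain and drawn filled or open by its range of background. MPNST 11 is the lowest tumour and MPNST 2 the highest on both means, and the microtumour lies between the nerve pools and MPNST 11.

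The strain of the rat was compared among the MPNST with an F test over BDIV, BDIX and F1 hybrid, with sex as a covariate. Of the 45 genes 9 passed, where 2.01% of all probes did, and 33 had an unadjusted p under 0.05, where 23.5% did. The 9 were Plk1, H2ax, Ccnb2, Ttk, Cdca8, Bub1b, Arhgap11a, Tpx2 and Bub1. All 9 are counted here as mitosis genes, but the replication genes Gmnn and Prim1 narrowly missed the threshold (adjusted p = 0.0522 in the F test). BDIV tumours were below BDIX tumours for all 45 genes, so no difference between mitosis and replication genes is read from the calls. In each of the 9 the mean of the BDIV tumours was below those of BDIX and of the F1 hybrids: Plk1 was at 6.93 and 7.84 in the BDIV tumours, 9.33 and 8.79 in BDIX and 8.70 to 9.88 in the 7 F1 hybrids (adjusted p = 0.017). Adjusted p-values of the other 8 ran to 0.0401. Both BDIV tumours lay below all F1 hybrids for 14 of the 45 genes, against 10.3% of all probes. Both are arrays of the lower background range and both BDIX tumours of the higher, so strain and background cannot be told apart between those strains. With background as a covariate, which leaves MPNST 9 of the F1 hybrids to separate them, none of the 45 passed limma's test (29 had an unadjusted p under 0.05), and MPNST 9 had a mean of the 45 genes of 9.67. None passed without MPNST 12 (34 had an unadjusted p under 0.05), 2 without MPNST 11 and 1 without MPNST 3.

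Nerve pools of BDIV and BDIX also differed, in 8 of the 45 genes, near the 21.5% of all probes, and 16 had an unadjusted p under 0.05 (35.9% of all probes). BDIV was higher for Gmnn (by 1.15 ± 0.19, adjusted p = 0.0135), Rfc4 (0.72 ± 0.18) and Prim1 (0.66 ± 0.16). It was lower for Mcm6 (-1.13 ± 0.21, adjusted p = 0.0174), Arhgap11a (-0.85), Mcm2 (-0.85), Nuf2 (-0.84) and Mcm4 (-0.69). With a share no larger than that of all probes, nothing is read from these calls about the genes. Leaving out 1 of these 4 pools left 0 to 3 of the genes, 0 of them without nerve pool 5 (limma, 7 with an unadjusted p under 0.05), 1 without nerve pool 4, 2 without nerve pool 6 and 3 without nerve pool 3.

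Set against nerve of the same strain, the genes rose in BDIX by a median of 2.87, in BDIX.BDIV-Mss4a by 3.02 and in BDIV by 2.46. The change was smaller in BDIV than in BDIX for 38 of the 45 genes (48.4% of all probes), with a median interaction of -0.64. This count depends on the scaling and on 1 tumour: it was 27 with median scaling (median -0.22), 29 with the authors' values (median -0.17) and 25 without MPNST 11 (median -0.14). The difference itself passed the test for 4 genes, or 8.89% of the 45, where 7.89% of all probes passed (7 genes, and 24% of all probes, had an unadjusted p under 0.05): Gmnn (-2.33 ± 0.37, adjusted p = 0.00392), H2ax (-2.12 ± 0.36, 0.00533), Prim1 (-2.11 ± 0.46, 0.0168) and Cdca8 (-2.23 ± 0.63, 0.0436). With a share near that of all probes, nothing is read from these calls about the genes as a set. The levels that follow describe single genes. Gmnn was at 9.49 and 9.38 in BDIV nerve and 9.24 and 9.32 in BDIV tumours, against 8.56 and 8.02 in BDIX nerve and 10.62 and 10.31 in BDIX tumours. Its tumours and pools of BDIX were thus well apart, and those of BDIV were not. Prim1 went from 10.14 and 10.05 to 10.10 and 10.29 in BDIV, and from 9.55 and 9.32 to 11.90 and 11.37 in BDIX. Prc1 (0.14 ± 0.65) and Cdk1 (-0.13 ± 0.94) did not pass, with adjusted p of 0.927 and 0.955. All 4 nerve pools and both BDIV tumours are of the lower background range and both BDIX tumours of the higher, so the interaction moves with background too, and leaving out 1 of the 8 arrays left 2 to 4 of the genes, 2 of them without MPNST 3 or without nerve pool 4, 5 or 6.

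**Figure D5:**
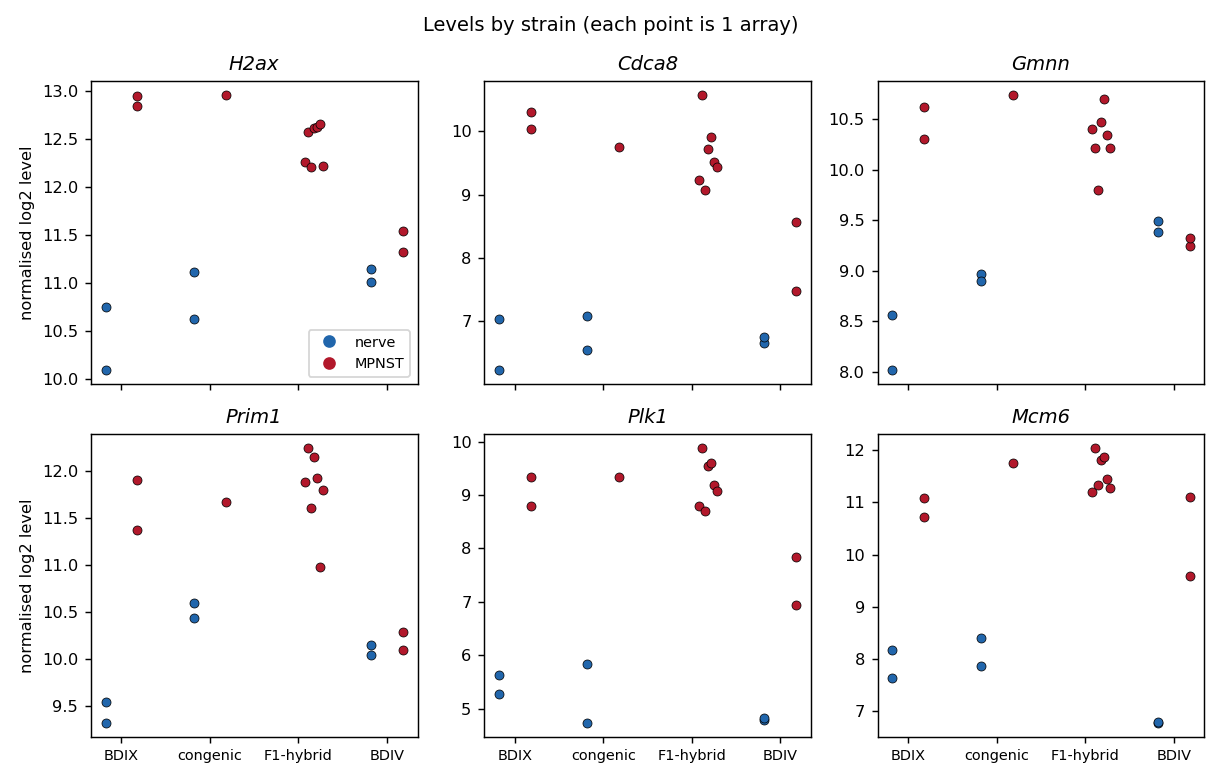
Normalised log2 levels of 6 genes by strain, with nerve pools in blue and MPNST in red, each point an array; congenic is BDIX.BDIV-Mss4a and F1 hybrids have no nerve pool. For Gmnn and Prim1 the BDIV tumours lie at the level of the BDIV pools, while for Plk1 and Mcm6 they lie above them.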

How the data were processed

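RNA was labelled with biotin and hybridised to Illumina rat arrays, and read with BeadStudio 3.0, per the submitters' processing notes. The deposited raw table gives a bead intensity and a detection p-value for each probe, per the file headers, and a second deposited table gives intensity values processed by the authors. Of its 19 columns, 17 followed the raw column of their own sample, and nerve 5 and nerve 6 followed each other's. It was used as an alternative.

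Intensities were background corrected, quantile normalised and put on a log2 scale with an offset of 16 by neqc of limma 3.58.1 in R 4.3.3, so the log2 values are computed here from the deposited intensities. On each array 331 to 417 probes (1.52% to 1.91%) had a detection p-value more than 0.02 away from that of probes of like signal. Used as deposited, they gave background SDs of 104 to 306 and a floor of 7.17. The p-values were therefore put in the order of the signal (a running median over 101 probes) before the background was estimated, which gave SDs of 10.4 to 17.5 and a floor of 4.38. This choice was made after seeing the data. It raised the genes called in the microtumour from 0 to 4 against nerve and from 7 to 17 against MPNST. The p-values as deposited are among the alternatives, as are leaving out arrays in turn in the nerve and interaction comparisons, leaving out MPNST 2 and 10, and the linear place. Detection calls used the p-values as deposited.

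Symbols came from the array annotation (13387 probes with 1 symbol, 8404 with none), updated through gene identifiers. limma's moderated tests were two-sided with Benjamini-Hochberg adjustment over 13116 probes and a threshold of 0.05. Each of the 3 groups had its own coefficient, with 16 residual degrees of freedom. The number of arrays limits the precision. The fit was tested on simulated data. Of the promoter searches, the 7-letter E2F motif replaced a longer one after its counts were seen, and the CCAAT to CHR spacing was set after positions were seen. The genes and lists were chosen with earlier results of these data known. Named in full are Ccnb2, Cdk1 and Prc1, the largest and smallest difference of each role, the 5 highest and 5 lowest places and SDs, genes called for microtumour or strain, and the 3 highest and lowest called of the further cell cycle genes.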

Additional observations from a re-analysis of the deposited data

Results flagged for a closer look

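In 90 sets of values (45 genes in the 6 nerve pools and in the 7 F1-hybrid MPNST), 7 held an array that lay far from the others of its set by Dixon's test, or 7.78%. Chance alone gives about 5% where sets are independent. Genes measured on the same arrays are not independent, and all 7 fell on nerve pool 2, MPNST 1 or MPNST 2, so no excess is read from the share. In nerve, pool 2 (a female BDIX.BDIV-Mss4a pool) had an Aurkb level of 8.45, against 5.0 to 6.20 in the other pools, and a Tyms level of 4.79, against 5.32 to 5.59. MPNST 1 was low for Bub1 at 8.35, against 9.18 to 9.77 in the other F1 hybrids, for Cenpf at 7.04, against 8.11 to 8.74 and for Mcm4 at 7.35, against 8.22 to 8.57. MPNST 2, the tumour with the highest mean of these genes and with skeletal muscle genes, was high for Mad2l1 at 8.76, against 6.61 to 7.30 and for Mcm2 at 10.81, against 9.63 to 10.14.

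The change from nerve to MPNST differed between BDIV and BDIX by limma's interaction test for Gmnn (-2.33 on the log2 scale), H2ax (-2.12), Prim1 (-2.11) and Cdca8 (-2.23), each smaller in BDIV. These are 8.89% of the 45 genes, near the 7.89% of all probes that passed. Nothing is read from these calls about the genes as a set. Both BDIX tumours differ from the other arrays of that comparison in background range, so that strain and background cannot be told apart. For Gmnn, H2ax and Prim1 the BDIV pools were above the BDIX pools by 1.15, 0.65 and 0.66, while Cdca8 differed by 0.07 between the pools and rose by 1.32 in BDIV and 3.55 in BDIX.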

How the results depend on the processing

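All 45 genes rose in MPNST against nerve under every setting except within the lower background range, where 40 did, and no gene changed direction in any of the comparisons of MPNST with nerve. Calls over all probes fell from 5999 to 3950 and 3817 within the higher and lower range, which hold fewer arrays. The microtumour and strain counts were less stable, given here as genes of the 45 and, where they moved, all probes. With median scaling the microtumour differed from nerve in 10 genes (761 probes) and from MPNST in 6 (912), strain passed in 1 and nerve strain in 14, and the median place was 0.497. With the authors' values 9 genes differed from MPNST, strain passed in 5 (133 probes), nerve strain in 1830 probes, and the place was 0.454, or 0.161 on the linear scale. The share of all calls that were higher in MPNST was 54.2%, 45.1% with median scaling and 43.8% with the authors' values, and the median difference of all probes 0.10, 0.00 and -0.04. With an offset of 50, 1 gene differed from nerve and strain passed in 16. With the detection p-values as deposited, 0 genes differed between microtumour and nerve in limma's test, where 2 had an unadjusted p under 0.05; 7 differed from MPNST (333 probes), nerve strain passed in 2 (1459), the interaction in 1557 probes, and the place was 0.145. With no detection filter 2 and 9 genes differed from nerve and from MPNST. With background as a block the microtumour counts were 7 (712 probes) and 10, and with it as a covariate strain passed in 0 genes (3 probes). With sex and strain as covariates 28 genes differed from MPNST (846 probes). With nerve pools 5 and 6 averaged, 2 differed from nerve, and 2 did when both MPNST with muscle genes were left out, with strain in 122 probes. Leaving out 1 array at a time gave 5366 to 6196 probes for MPNST against nerve, 2 to 7 genes (290 to 401 probes) for the microtumour against nerve, 14 to 30 (450 to 676) against MPNST, 0 to 7 (9 to 109) for strain, 0 to 3 (455 to 2295) for nerve strain, 2 to 4 (174 to 895) for the interaction and a place of 0.32 to 0.35. The microtumour count against nerve was 2 without MPNST 4, 5 or 10 or nerve pool 4, 5 or 6, and 7 without MPNST 11 or nerve pool 3. Replicate numbers do not pair the samples: same-numbered arrays of MPNST and nerve correlated over 0.1 in 2 of 6 numbers, and none was best with its own. With the replicate block all 45 genes rose, and 1 and 0 genes of the microtumour passed limma's test against nerve and MPNST (36 against MPNST with an unadjusted p under 0.05; 52 and 32 probes).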
